A study of Mus musculus with 15 samples.

Results

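The epithelial sodium channel (ENaC) and the genes that act on it were read from kidney RNA of 15 male C57BL/6 mice, 5 each at 3, 12 and 24 months of age, with 1 library per mouse and no other treatment named in the labels. They are the 7 genes Scnn1a, Scnn1b, Scnn1g, Sgk1, Nedd4l, Tsc22d3 and Prss8 out of 33058 named genes in the table. They were chosen by name, and the value of a gene is the sum of the FPKM (read fragments divided by transcript length and library size) of its annotated transcripts and its assembled splice variants. The 7 genes hold 59 such transcripts and host 7 of the 11929 circular RNAs listed beside them. The mice are named by the numbers of their labels, 5 to 9 at 3 months, 17 to 21 at 12 months and 31 to 35 at 24 months. No genetic change is named in the labels, and the tissue is labelled kidney without a region, so the values are means over all its cells.

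ENaC lets sodium enter the principal cells of the connecting tubule and collecting duct from the urine, and it sets the last step of renal sodium uptake. It is built from an alpha, a beta and a gamma subunit. Aldosterone, acting through the mineralocorticoid receptor, raises the kinase SGK1, which phosphorylates the ubiquitin ligase NEDD4-2 (encoded by Nedd4l) and so keeps it from removing the channel from the membrane. The corticosteroid-induced protein GILZ (encoded by Tsc22d3) acts in the same complex, and the protease prostasin (encoded by Prss8) raises the channel's activity through cleavage of the gamma subunit.

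By the ratio of coverage to FPKM, the libraries held between 5.03 and 6.13 Gb of aligned bases at 3 months, between 5.84 and 8.03 Gb at 12 months and between 6.07 and 7.33 Gb at 24 months. Of the 7 principal cell markers (among them the water channel gene Aqp2), 0 were absent from all mice of an age, and their summed level lay between 77.4 and 233 FPKM at 3 months, between 63.3 and 95 FPKM at 12 months and between 56.5 and 102 FPKM at 24 months. The mean log2 level of these 7 markers was 0.34 lower at 24 than at 3 months (exact permutation test, 2-sided, p = 0.0397) and 0.40 lower at 12 than at 3 months (exact p = 0.0238). The markers were uneven, since at 24 against 3 months the log2 fold change was -1.0 for Hsd11b2, -0.92 for Aqp2 and -0.42 for Avpr2 but 0.14 for Elf5, 0.05 for Fxyd4 and 0.016 for Kcne1, and 0 of the 7 passed (limma). Every 3-month library had fewer genes above 0, between 23354 and 24198, than every 12-month library, between 24462 and 25350, and every 24-month library, between 24747 and 25435, and the part of this in the results was not tested. What lowered some of these markers and not others was not tested, and whole tissue does not tell the number of cells from the RNA per cell. Values of the 7 genes relative to these markers are given after the comparisons.

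In the 24-month against the 3-month kidneys, 0 of the 7 genes passed an adjusted p of 0.05 (limma on log2(FPKM + 1), Benjamini-Hochberg over 31755 genes), where 1.22% of all genes tested did. At an unadjusted p under 0.05, 1 of the 7, Nedd4l, was lower, beside 3.47% of all genes, and 0 were higher. In the 12-month against the 3-month kidneys, 0 of the 7 passed, where 0.25% of all genes did, and 3 were lower at an unadjusted p under 0.05, namely Sgk1, Nedd4l and Tsc22d3, beside 2.9% of all genes. In the 24-month against the 12-month kidneys, 0 of the 7 passed, where 0.0031% did, and 1 was higher at an unadjusted p under 0.05, namely Sgk1, beside 3.07% of all genes. The median log2 fold change of the 7 genes was -0.26, -0.21 and 0.02 in these comparisons, beside 0.02, 0.022 and -0.0013 over all genes tested. The comparisons share mice and are not independent of each other. The ages overlapped for every one of the 7 genes in every comparison, whereas the ages did not overlap for 4.73%, 4.11% and 1.07% of all genes.

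**Figure D1:**
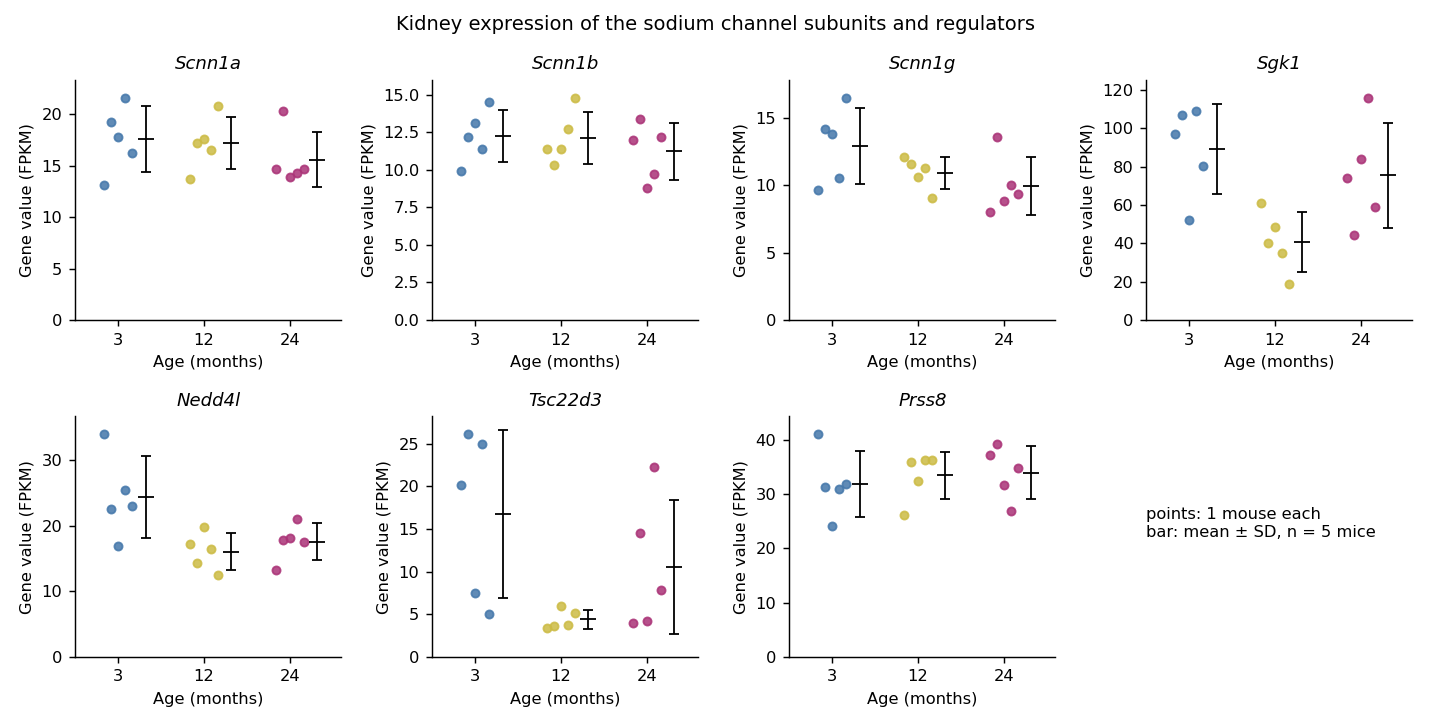
Gene value in FPKM (linear axis from 0) of each of the 7 genes against age in months, with 1 point per mouse and the mean ± SD of 5 mice as a bar. The 12-month mice are the lowest by mean for Sgk1 (40.7 FPKM), Tsc22d3 (4.39 FPKM) and Nedd4l (16.0 FPKM), and the ages overlap in every panel.

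Ordered by the median level over the 15 mice, Sgk1 stood highest at 60.8 FPKM. It was followed by Prss8 at 32.4 FPKM, Nedd4l at 17.8 FPKM, Scnn1a at 16.5 FPKM, Scnn1b at 12.0 FPKM, Scnn1g at 10.6 FPKM and Tsc22d3 at 6.01 FPKM. FPKM is per transcript length, but each value is a sum over models of unlike length, so this order depends on the models. Nedd4l rests on assembled models of up to 51250 bases, and Sgk1 includes short transcripts such as ENSMUST00000124350 of 859 bases. Prss8 was above Nedd4l in 15 of 15 mice and Scnn1a was above Scnn1b in 15 of 15. Nedd4l was above Scnn1a in 9 mice and Scnn1b above Scnn1g in 7, so these neighbours did not differ beyond their spread.

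Scnn1a encodes the alpha subunit and lies on the plus strand of chromosome 6 of GRCm38, from 125320659 to 125344943. Its level was 13.1, 19.2, 17.8, 21.6 and 16.2 FPKM in 3-month mice 5 to 9. It was 13.7, 17.2, 17.6, 16.5 and 20.8 FPKM in 12-month mice 17 to 21, and 14.7, 20.3, 13.9, 14.3 and 14.7 FPKM in 24-month mice 31 to 35. Mouse 32 was well above the other 24-month mice, and all 3 ages overlapped. The log2 fold change was -0.16 (95% interval -0.48 to 0.15, adjusted p = 0.662 from limma) at 24 against 3 months and -0.029 (-0.34 to 0.28) at 12 against 3 months.

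The transcripts of Scnn1a were more uneven than their sum. The annotated transcript ENSMUST00000081440 had 10.2 ± 4.18 FPKM (SD, n = 5) at 3 months, 7.84 ± 2.53 FPKM at 12 months and 6.48 ± 2.38 FPKM at 24 months. This was 57.6% of the gene's FPKM at 3 months and 41.8% at 24 months, and the log2 fold change of -0.58 had an adjusted p of 0.702 (limma over 124719 transcripts). The assembled variant MSTRG.31429.1 had 5.59 ± 2.03, 5.95 ± 0.645 and 6.02 ± 0.971 FPKM at the same ages. That variant starts at 125309676, within the gene Ltbr on the opposite strand.

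Scnn1b, the beta subunit, lies on the plus strand of chromosome 7 from 121865038 to 121918514. It had 9.92, 12.2, 13.1, 11.4 and 14.5 FPKM in the 3-month mice in the order of their numbers, and 11.4, 10.3, 11.4, 12.7 and 14.8 FPKM in the 12-month mice. The 24-month mice had 12.0, 13.4, 8.78, 9.72 and 12.2 FPKM. Mice 33 and 34 were below all younger mice, and the other 24-month mice lay among them. The log2 fold change was -0.12 (-0.41 to 0.17, adjusted p = 0.686) at 24 against 3 months and -0.0095 (-0.27 to 0.25) at 12 against 3 months by limma.

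Scnn1g, the gamma subunit and the one that prostasin cleaves, lies on the plus strand of the same chromosome from 121734479 to 121768475. It had 9.66, 14.2, 13.8, 10.5 and 16.5 FPKM in the 3-month mice and 12.1, 11.6, 10.6, 11.3 and 9.02 FPKM in the 12-month mice. In the 24-month mice it had 8, 13.6, 8.83, 10.0 and 9.37 FPKM. Mice 31, 33 and 35 were below every 3-month mouse, while mouse 32 reached the level of the higher 3-month mice. The log2 fold change was -0.34 (-0.72 to 0.037) at 24 against 3 months, with an adjusted p of 0.393 from limma, and -0.21 (-0.53 to 0.11) at 12 against 3 months. Its mean level at 24 months was 0.772 of that at 3 months (exact permutation p = 0.0714, 2-sided).

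The starts of the main transcripts of Scnn1b and Scnn1g are shown because they carry most of each gene's FPKM at every age. Transcripts starting within 100 bases of the Scnn1g start carried between 77.5% and 89.2% of its FPKM in a mouse, and those near the Scnn1b start between 91.3% and 99.4%. The sequences are 300 bases from RefSeq on GRCm38.p6, 250 before the start and 50 after it, both on the plus strand. They span chr7:121734229-121734528 for Scnn1g and chr7:121864788-121865087 for Scnn1b.
Scnn1g: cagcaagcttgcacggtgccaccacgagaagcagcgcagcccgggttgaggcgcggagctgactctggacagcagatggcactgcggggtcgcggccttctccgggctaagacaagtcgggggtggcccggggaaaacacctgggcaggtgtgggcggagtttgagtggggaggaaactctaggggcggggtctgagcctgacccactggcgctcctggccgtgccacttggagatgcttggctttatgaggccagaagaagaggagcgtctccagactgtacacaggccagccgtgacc
Scnn1b: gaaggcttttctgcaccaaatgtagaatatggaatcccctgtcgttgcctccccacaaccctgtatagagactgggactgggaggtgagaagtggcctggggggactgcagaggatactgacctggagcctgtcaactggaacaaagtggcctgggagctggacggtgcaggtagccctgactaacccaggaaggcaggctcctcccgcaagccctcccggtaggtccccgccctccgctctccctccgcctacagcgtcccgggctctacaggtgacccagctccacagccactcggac
Both strands were searched for TGTTCT, the core hexamer bound by the glucocorticoid and mineralocorticoid receptors, for its inverted repeat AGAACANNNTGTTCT, and for the E-box CACGTG, which CLOCK and BMAL1 bind. A match would be in capitals. There was none in these windows, which says only that these letters are not there. RefSeq starts were matched for 4 of the 7 genes, namely Scnn1b, Scnn1g, Sgk1 and Tsc22d3. The windows matched to Tsc22d3 were not those of its main transcript, and transcripts near them carried 0%, 3.22% and 3.63% of its FPKM on average at 3 months. Scnn1a, Nedd4l and Prss8 were not matched.

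The proportions between the subunits were compared as ratios of FPKM within each mouse. Scnn1a to Scnn1b was 1.46 ± 0.298 (SD, n = 5) at 3 months, 1.42 ± 0.188 at 12 months and 1.40 ± 0.174 at 24 months. Scnn1a to Scnn1g was 1.41 ± 0.397, 1.61 ± 0.432 and 1.58 ± 0.157 at the same ages. Scnn1b to Scnn1g was 0.858 to 1.09 in the 3-month mice, 0.890 to 1.64 in the 12-month mice and 0.968 to 1.5 in the 24-month mice. Of the 9 comparisons, the smallest p was that of Scnn1b to Scnn1g at 24 against 3 months, with a difference of 0.24 in the log2 ratio (exact permutation p = 0.151, adjusted p = 0.929 over the 9). The ages overlapped for all 3 ratios, and a p above the threshold does not show that the ratios were equal.

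**Figure D2:**
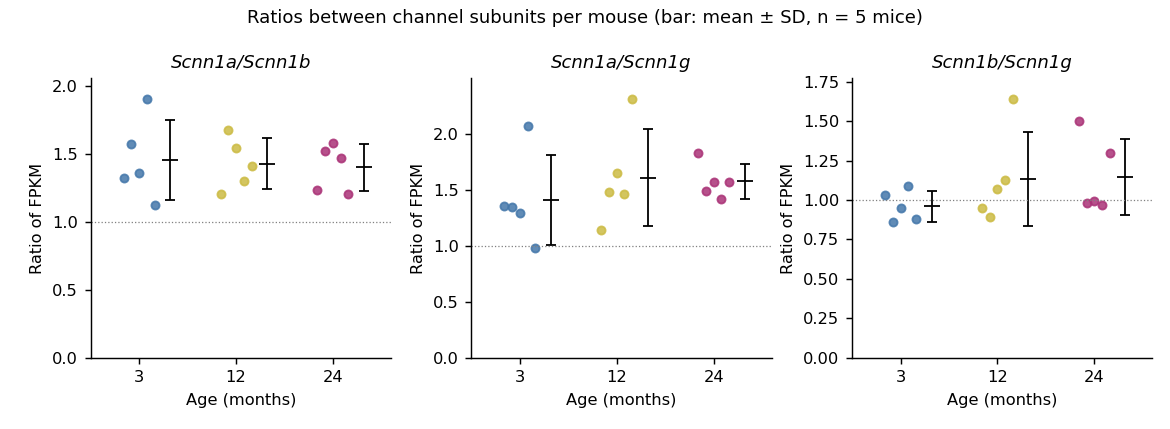
Ratio of FPKM between channel subunits in each mouse (linear axis from 0, dotted line at 1) against age in months, with the mean ± SD of 5 mice as a bar. Scnn1a is above Scnn1b in every mouse, and the ages overlap for each ratio.

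Sgk1, the kinase of the aldosterone response, lies on the plus strand of chromosome 10, where its annotated transcripts span 21882184 to 21999903. It had 97.0, 107, 52.1, 109 and 80.2 FPKM in 3-month mice 5 to 9. In 12-month mice 17 to 21 it had 60.8, 40.3, 48.5, 35.1 and 19 FPKM, and in 24-month mice 31 to 35 it had 74.2, 44.2, 83.9, 116 and 58.9 FPKM. At 12 months 4 of the 5 mice were below every 3-month mouse, and only mouse 17 reached above the lowest of them, mouse 7. The 24-month mice overlapped both younger groups, and 3 of them were above every 12-month mouse.

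The mean Sgk1 level at 12 months was 0.457 of that at 3 months. The log2 fold change was -1.16 (95% interval -1.85 to -0.46, standard error 0.31, exact permutation p = 0.0159), and its adjusted p from limma was 0.139. At 24 against 12 months the mean was 1.85 times higher, with a log2 fold change of 0.89 (0.15 to 1.64, exact permutation p = 0.0397) and an adjusted p of 0.745 from limma. At 24 against 3 months it was -0.26 (-0.89 to 0.37, adjusted p = 0.682). Leaving out any single mouse kept the log2 fold change at 12 against 3 months between -1.34 and -0.92, and it did not pass the adjusted p in any of the 19 alternatives tried.

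**Figure D3:**
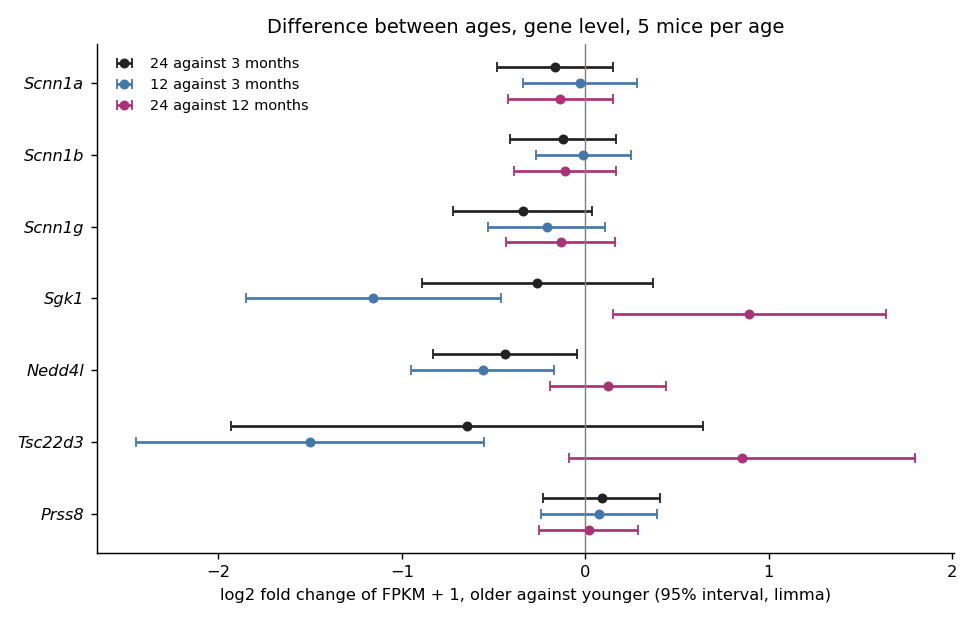
Log2 fold change of FPKM + 1 of each of the 7 genes in the 3 comparisons of ages, older against younger, with the 95% interval from limma (5 mice per age, line at 0). The intervals exclude 0 for Sgk1, Nedd4l and Tsc22d3 at 12 against 3 months, for Nedd4l at 24 against 3 months and for Sgk1 at 24 against 12 months, and none of these had an adjusted p under 0.05.

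Of the 18 Sgk1 transcripts, those of the 2 neighbouring starts at 21993890 and 21994666 carried most of the FPKM. The sequences around these starts are shown because transcripts from both had the same order of ages. They are on the plus strand of GRCm38.p6 from RefSeq, chr10:21993640-21993939 for the upstream start and chr10:21994416-21994715 for the downstream start. Capitals mark the E-box and the hexamers named above.
Sgk1 upstream start: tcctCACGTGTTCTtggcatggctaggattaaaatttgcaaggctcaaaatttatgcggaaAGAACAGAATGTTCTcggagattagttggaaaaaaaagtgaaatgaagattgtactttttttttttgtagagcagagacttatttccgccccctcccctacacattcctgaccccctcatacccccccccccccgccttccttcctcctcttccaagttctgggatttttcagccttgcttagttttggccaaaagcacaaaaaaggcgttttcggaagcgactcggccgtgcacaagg
Sgk1 downstream start: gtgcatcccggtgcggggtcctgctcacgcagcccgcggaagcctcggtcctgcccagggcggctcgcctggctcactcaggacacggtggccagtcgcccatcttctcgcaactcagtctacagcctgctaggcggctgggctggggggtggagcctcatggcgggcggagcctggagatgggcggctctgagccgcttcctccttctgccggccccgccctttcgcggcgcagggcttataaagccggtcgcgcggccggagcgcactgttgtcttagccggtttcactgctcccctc
The upstream window held the E-box at -246, counted from the base before the start as -1, and the hexamer at -242, which overlaps it, as well as at -189 and -180. The last pair forms the inverted repeat. Over all 32851 promoters of the same length, the hexamer was in 19%, the E-box in 7.15% and the inverted repeat in 0.00913%, which is 3 promoters. The downstream window held none of them. Among the 11 windows searched, the hexamer was also at -195 of the Sgk1 start 21882184 and at -13 of the Sgk1 start 21992223. Transcripts near these starts carried at most 3.78% and 5.41% of the gene's FPKM in a mouse. It was also at -185 of the Tsc22d3 start 140600522, near which no transcript was listed. A match of letters is no evidence of binding.

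Transcripts near the upstream start summed to 43.2, 10.8, 23.8, 58.1 and 28.2 FPKM in the 3-month mice, to 20.1, 15.1, 14.8, 9.20 and 4.85 FPKM in the 12-month mice and to 26.1, 14.0, 22.8, 43.3 and 19.2 FPKM in the 24-month mice. Those near the downstream start summed to 33.7, 87.4, 14.9, 30.3 and 30.1 FPKM, to 23.5, 12.2, 8.44, 11.7 and 7.99 FPKM, and to 19.4, 15.2, 35.8, 32.2 and 22.3 FPKM. Mouse 6, low at the upstream start and high at the downstream one, had the most uneven split, and the ages overlapped at both starts. At 12 against 3 months the log2 difference was -1.22 upstream (exact permutation p = 0.0476) and -1.42 downstream (exact p = 0.0159), each with an adjusted p of 0.0833 over the 6 exact tests. At 24 against 12 months it was 0.95 at both starts (exact p = 0.0556 and 0.0317, adjusted p = 0.0833). The split depends on how shared reads were assigned to overlapping transcripts.

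Of single Sgk1 transcripts, 3 had an unadjusted p under 0.05 at 12 against 3 months and again at 24 against 12 months, and 0 passed the adjusted p. ENSMUST00000126560 had 9.34 ± 3.60, 2.73 ± 2.14 and 6.90 ± 2.62 FPKM (SD, n = 5) at 3, 12 and 24 months (log2 fold change -1.59, adjusted p = 0.442 from limma, at 12 against 3 months). ENSMUST00000092673, from the upstream start, had 16.1 ± 15.5, 4.44 ± 3.10 and 12.3 ± 7.11 FPKM. ENSMUST00000020145, from the downstream start, had 11.4 ± 5.21, 5.86 ± 2.75 and 10.7 ± 3.81 FPKM.

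Sgk1 also hosts 2 circular RNAs listed as intronic, ciRNA19 (chromosome 10, 21995042 to 21995471) and ciRNA837 (21997438 to 21997896). Intronic circles are lariats that escape debranching and stay in the nucleus. In CPM (estimated counts scaled to 1000000 circular RNA counts per mouse), ciRNA19 had 16.6, 14.2, 4.87, 13.2 and 7.97 in the 3-month mice, 4.68, 6.52, 6.98, 4.44 and 2.35 in the 12-month mice and 11.7, 6.56, 13.1, 19.7 and 10.7 in the 24-month mice. As for linear Sgk1, the 12-month mice were low, and mouse 7 was the low one of the 3-month mice. At 12 against 3 months ciRNA19 fell by 1.22 on the log2 scale (standard error 0.32, adjusted p = 0.0408 from edgeR over 11923 circular RNAs), where 6.63% of all circular RNAs tested passed and 3.2% fell. The call was lost (adjusted p from 0.0583 to 0.0899) without any of 8 of these 10 mice in turn, namely 5, 6, 8, 17, 18, 19, 20 and 21. At 24 against 12 months ciRNA19 had a log2 fold change of 1.26 (adjusted p = 0.0585 from edgeR, 0.00157 from DESeq2), where 0.738% of all passed in edgeR.

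The other circle, ciRNA837, had 9.31 ± 2.61, 5 ± 2.16 and 10.3 ± 4.88 CPM (SD, n = 5) at 3, 12 and 24 months. Its log2 fold change at 12 against 3 months was -0.93, with an adjusted p of 0.0826 from edgeR and of 0.0344 from DESeq2. Across the 15 mice the log2 level of ciRNA19 and that of linear Sgk1 had a Pearson r of 0.90 and a Spearman rho of 0.90, and those of ciRNA837 had 0.86 and 0.83. These points share libraries and host gene, and whether reads were counted toward both is not given in the sources used here. Each circle rested on few reads, between 20 and 178 estimated counts in a mouse for ciRNA19 and between 12.2 and 158 for ciRNA837.

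**Figure D4:**
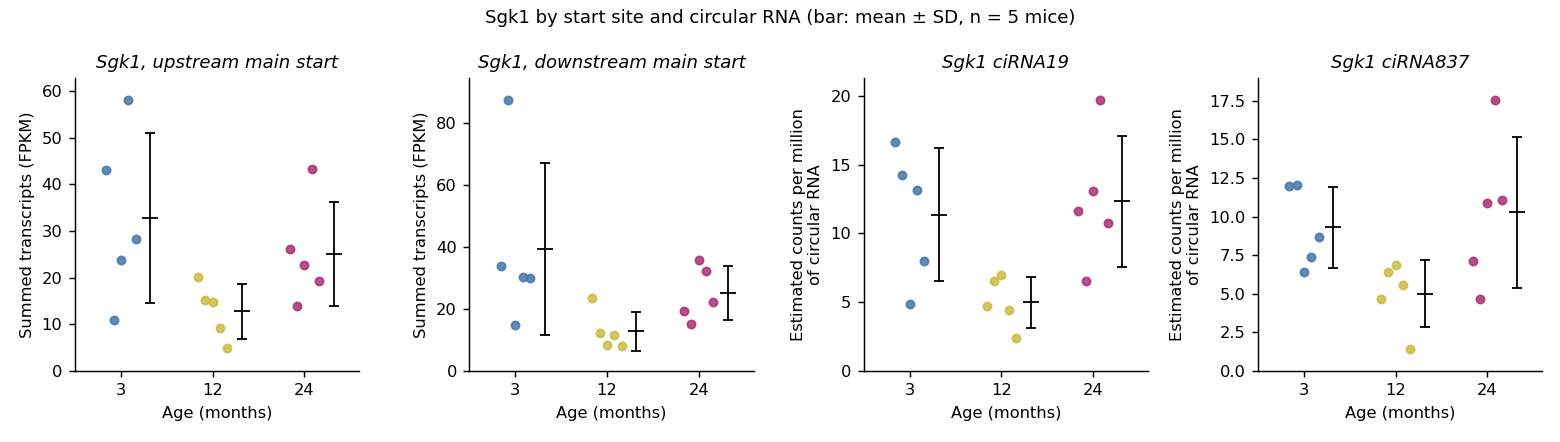
Sgk1 transcripts summed by start (FPKM, left pair of panels) and its intronic circles (CPM, right pair) against age in months, on linear axes from 0, with 1 point per mouse and the mean ± SD of 5 mice as a bar. The 12-month mean is the lowest in each panel, at 12.8 FPKM for both starts, 4.99 CPM for ciRNA19 and 5 CPM for ciRNA837.

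Nedd4l encodes the ubiquitin ligase NEDD4-2, whose annotated transcripts lie on the plus strand of chromosome 18 from 64887756 to 65217826. It had 34, 22.6, 16.9, 25.5 and 23.1 FPKM in the 3-month mice, 17.2, 14.4, 19.8, 16.4 and 12.5 FPKM in the 12-month mice and 13.2, 17.8, 18.2, 21.1 and 17.5 FPKM in the 24-month mice. Mouse 5 was the highest of all, and mouse 7 was the 3-month mouse that lay among the older ones. In mouse 5, 7.72 FPKM (22.7%) lay on MSTRG.17131.3, an assembled variant of 3 exons that was at 0 in every 12- and 24-month mouse. In mouse 9, 5.74 FPKM (24.9%) lay on MSTRG.17131.5, also of 3 exons. That variant reached at most 1.19 FPKM at 12 months and 3.03 FPKM at 24 months. The gene values compared here include both variants. The log2 fold change was -0.56 (95% interval -0.95 to -0.17, exact permutation p = 0.0238) at 12 against 3 months, with an adjusted p of 0.196 from limma. It was -0.43 (-0.83 to -0.043, exact p = 0.0476, adjusted p = 0.28 from limma) at 24 against 3 months and 0.12 (-0.19 to 0.44) at 24 against 12 months. The older mice's mean levels were 0.657 and 0.719 of that at 3 months.

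Nearly all of the Nedd4l signal was on assembled transcripts. The 2 annotated transcripts carried 0.199% of its FPKM over the 15 mice, and 10 assembled variants of up to 51250 bases carried the rest, where the annotated transcripts have 8163 and 8212 bases. Summed over annotated transcripts alone the log2 fold change was 0.029 at 24 against 3 months and 0.012 at 12 against 3 months, on values near 0. The variant with the highest level, MSTRG.17131.9, had 6.63 ± 1.10, 4.41 ± 0.641 and 4.41 ± 0.964 FPKM (SD, n = 5) at 3, 12 and 24 months. All 3-month mice, at 5.55 to 8.18 FPKM, were above all 12-month mice, at 3.49 to 5.04 FPKM, and above all 24-month mice, at 2.93 to 5.26 FPKM. Its log2 fold change was -0.49 (adjusted p = 0.474) and -0.50 (adjusted p = 0.452) by limma. Among the transcripts of the 7 genes it was the only one without overlap, 1 of 59 and 1 of 61 in these comparisons. Of all transcripts 1.85% and 2.13% did not overlap, so the count is near that share.

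Over all transcripts of the 7 genes, including 2 assembled inside introns of Tsc22d3, 4 of 61 had an unadjusted p under 0.05 at 24 against 3 months. All were lower and belonged to Nedd4l, where 2.47% of all transcripts were lower at that p. At 12 against 3 months 8 of 59 were lower (2.5% of all), 3 of Sgk1, 3 of Nedd4l and 2 of Tsc22d3. At 24 against 12 months 4 of 60 were higher (2.3% of all), 3 of Sgk1 and 1 of Nedd4l, and 1 of Scnn1b was lower. In each comparison 0 passed the adjusted p, which 0.0192%, 0.00481% and 0.00559% of all transcripts did. Transcripts of 1 gene share reads and are not independent.

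Nedd4l hosts 5 exonic circular RNAs, which form when a downstream splice site joins back to an upstream one. From the upstream end they are circRNA4197 (64997348 to 65080071, 4 exons), circRNA10538 (65074724 to 65080071, 3 exons), circRNA7756 (65172275 to 65186384, 6 exons), circRNA7165 (65174045 to 65198726, 9 exons) and circRNA7166 (65191437 to 65198726, 5 exons). The upstream pair shares its last base, and so do circRNA7165 and circRNA7166. The span of circRNA7756 overlaps that of circRNA7165. The circles of either end are therefore not independent measurements. At 24 against 3 months 3 of the 5 fell (edgeR, adjusted p under 0.05), the 3 toward the downstream end, where 13.3% of all 11924 circular RNAs tested passed in either direction and 6.61% fell.

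The level of circRNA7165 was 582, 368, 351, 363 and 292 in the 3-month mice, 324, 274, 306, 333 and 214 in the 12-month mice and 204, 232, 198, 211 and 284 CPM in the 24-month mice. Every 24-month mouse was below every 3-month mouse, as was the case for 11.2% of all circular RNAs in either direction. It fell by 0.87 on the log2 scale (standard error 0.17, adjusted p = 0.00625 from edgeR). The 12-month mice overlapped both ages, with a log2 fold change of -0.47 against 3 months (adjusted p = 0.126).

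The circle that shares its end, circRNA7166, had 63.3 to 117 CPM at 3 months, 56.6 to 67.4 at 12 months and 44.7 to 62.6 at 24 months. The 24-month mice were again all below the 3-month mice, and it fell by 0.78 on the log2 scale (standard error 0.15, adjusted p = 0.00623 from edgeR). The third, circRNA7756, had 213 to 433 CPM at 3 months, 148 to 261 at 12 months and 141 to 241 at 24 months, with an overlap through mice 9 and 35. It fell by 0.80 on the log2 scale (standard error 0.19, adjusted p = 0.0179 from edgeR). Its call was lost without 24-month mouse 31 (adjusted p = 0.0503) or 33 (adjusted p = 0.0528), whereas circRNA7165 and circRNA7166 passed without any single mouse. Without 3-month mouse 5, the highest for all 3, the log2 fold changes were -0.68, -0.62 and -0.59 in the order of this account.

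The upstream pair behaved less evenly. The most abundant circle of the gene, circRNA4197, ranked 41 of 11929 by mean count, with 1660 ± 274 CPM (SD, n = 5) at 3 months, 1169 ± 274 at 12 months and 1354 ± 338 at 24 months. Its log2 fold change was -0.54 (adjusted p = 0.0679 from edgeR, 0.0191 from DESeq2) at 12 against 3 months and -0.37 (adjusted p = 0.157 from edgeR) at 24 against 3 months. The rarer circRNA10538 had 40.7 ± 7.16, 29.5 ± 11.5 and 33.5 ± 13.3 CPM. Whether the upstream and downstream circles differ in their change was not tested. Across the 15 mice, the log2 level of circRNA4197 and that of linear Nedd4l had a Pearson r of 0.87 and a Spearman rho of 0.91, and circRNA7165 had 0.70 and 0.46. The points share libraries and host gene.

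**Figure D5:**
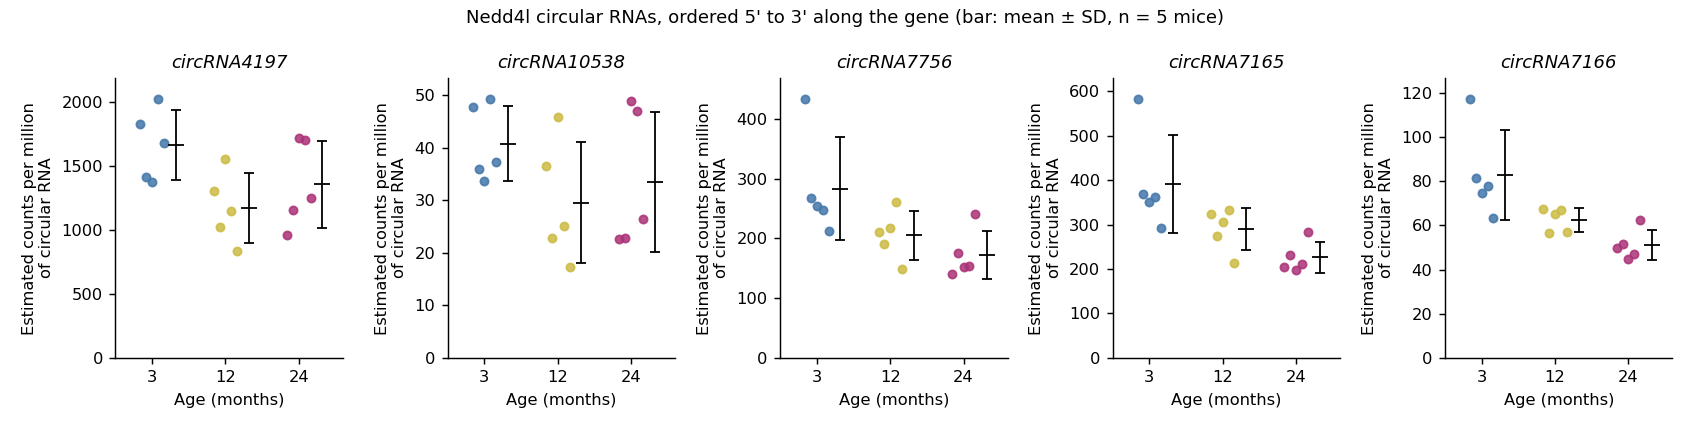
Level in CPM of the 5 Nedd4l circles against age in months, on linear axes from 0, ordered from the upstream to the downstream end of the gene, with 1 point per mouse and the mean ± SD of 5 mice as a bar. The 3 circles on the right fall from means of 283, 391 and 82.9 at 3 months to 172, 226 and 51.1 at 24 months, and the pair on the left has its lowest mean at 12 months.

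Tsc22d3, which encodes GILZ, lies on the minus strand of chromosome X from 140539528 to 140600659. It had 20.1, 26.1, 7.47, 24.9 and 5.03 FPKM in the 3-month mice, 3.42, 3.65, 6.01, 3.76 and 5.09 FPKM in the 12-month mice and 3.91, 14.5, 4.15, 22.3 and 7.88 FPKM in the 24-month mice. The 12-month mice were uniformly low, while the other ages held both low mice (7 and 9, and 31 and 33) and mice several times higher. The SD was 59.0% of the mean at 3 months, 25.5% at 12 months and 74.3% at 24 months, the widest spread of the 7 genes at 3 and 24 months. At 12 against 3 months the log2 fold change was -1.5 (95% interval -2.45 to -0.55, exact permutation p = 0.0238), with an adjusted p of 0.161 from limma. At 24 against 3 months it was -0.64 (-1.93 to 0.64, adjusted p = 0.662) and at 24 against 12 months 0.86 (-0.088 to 1.80, adjusted p = 0.798).

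The spread lay mostly in ENSMUST00000055738, with 11.8 ± 9.87 FPKM (SD, n = 5) at 3 months, 1.82 ± 1.57 FPKM at 12 months and 6.70 ± 7.38 FPKM at 24 months. It carried 55.9%, 39.9% and 50% of the gene's FPKM on average. Its log2 fold change at 12 against 3 months was -1.67, with an adjusted p of 0.68 from limma. ENSMUST00000133023 stayed between 0.112 and 2.51 FPKM in all mice. The assembled variant MSTRG.40039.7 had 2.10 ± 1.45 FPKM at 3 months, and 3 mice at 12 months and 3 at 24 months were listed at 0.

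Prss8 encodes the protease prostasin and lies on the minus strand of chromosome 7 from 127925716 to 127930104, next to Kat8 on the opposite strand, whose end it overlaps. It had 41.0, 31.2, 24.1, 31 and 31.9 FPKM in the 3-month mice, 26.2, 35.9, 32.4, 36.3 and 36.2 FPKM in the 12-month mice and 37.1, 39.2, 31.6, 26.9 and 34.8 FPKM in the 24-month mice. The ages lay over each other, with the highest and the lowest value both at 3 months. The log2 fold change was 0.094 (95% interval -0.23 to 0.41, adjusted p = 0.774 from limma) at 24 against 3 months, 0.074 (-0.24 to 0.39) at 12 against 3 months and 0.020 (-0.25 to 0.29) at 24 against 12 months. The transcript ENSMUST00000032988 carried between 71.9% and 87.8% of it in every mouse.

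The levels were also expressed relative to the mean log2 level of the 7 principal cell markers in the same mouse. This adds 1 offset to every gene, 0.34 at 24 against 3 months and 0.40 at 12 against 3 months, so a sign above 0 can follow from the offset alone and no test is read from it. At 24 against 3 months the log2 differences became 0.18 for Scnn1a, 0.22 for Scnn1b, 0.0032 for Scnn1g, 0.079 for Sgk1, -0.092 for Nedd4l, -0.30 for Tsc22d3 and 0.44 for Prss8. The difference at 12 against 3 months stayed below 0 for Sgk1 at -0.76, for Tsc22d3 at -1.1 and for Nedd4l at -0.16. The marker level was lower at the same ages as that of Nedd4l, and its part in the Nedd4l level was not tested.

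The 7 genes were correlated pairwise over the 15 mice on log2(FPKM + 1), which gave 21 pairs with 100000 permutations each. Sgk1 and Nedd4l had a Pearson r of 0.71 (permutation p = 0.00348, adjusted p = 0.0365) and a Spearman rho of 0.75 (permutation p = 0.00146, adjusted p = 0.0307). Without the 2 mice farthest from the median of Sgk1, r was 0.64, and after centring each age it was 0.60 (permutation p = 0.0241, adjusted p = 0.253). Nedd4l and Tsc22d3 had an r of 0.70 (permutation p = 0.00319, adjusted p = 0.0365) and a rho of 0.66 (permutation p = 0.00947, adjusted p = 0.0994), and an r of 0.52 with each age centred (permutation p = 0.0958, adjusted p = 0.335). Without the 2 mice farthest from the median of Nedd4l, its r was 0.56. With each age centred, 0 of the 21 pairs had an adjusted p under 0.05, and the cause was not tested.

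Among the subunits, the Pearson r was 0.56 for Scnn1a and Scnn1b, 0.33 for Scnn1a and Scnn1g and 0.45 for Scnn1b and Scnn1g (adjusted p = 0.161, 0.539 and 0.331 by permutation). Scnn1b and Sgk1 moved against each other, with an r of -0.52 (permutation p = 0.0457, adjusted p = 0.192) and a rho of -0.55 (permutation p = 0.0343, adjusted p = 0.18). Without the 2 mice farthest from the median of Scnn1b it was -0.32, and with each age centred it was -0.72 (permutation p = 0.00657, adjusted p = 0.138).

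Ranked over 13439 genes with a mean of at least 1 FPKM, the genes most like each member by Spearman's rho over the 15 mice were the following, given as a description. For Scnn1a they were Sppl2b at 0.93, Fam193b at 0.90 and Gm26566 at 0.89, and for Scnn1b they were Ezh1 at 0.90 and Ppp6r1 and Gcgr at 0.86. For Scnn1g they were Tmem147 at 0.90, Slc39a3 at 0.85 and Cox5a at 0.84. For Sgk1 they were Pde3b at 0.93 and Ahctf1 and Gm15344 at 0.90. For Nedd4l they were Cyp4a31 and Gm15425 at 0.85 and Gsk3b at 0.84, and for Tsc22d3 they were Ap5m1 at 0.86, Slain2 at 0.84 and Adnp2 at 0.81. For Prss8 they were Lgals3 at 0.86, Gnl3l at 0.85 and Cnksr1 at 0.82. All mice share 1 set of libraries, and the members themselves were left out of the ranked genes.

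Upstream of the channel, the mineralocorticoid receptor gene Nr3c2 had 3.63 ± 0.702 FPKM at 3 months, 5.22 ± 0.532 at 12 months and 5.76 ± 0.871 at 24 months (SD, n = 5), and its log2 fold change of 0.55 at 24 against 3 months had an adjusted p of 0.091 in limma. Hsd11b2, which inactivates glucocorticoid in principal cells, had 37.1 ± 19.5, 19.4 ± 5.97 and 16.6 ± 6.74 FPKM (adjusted p = 0.301 at 24 against 3 months). The glucocorticoid receptor gene Nr3c1 had 9.11 ± 0.781 and 9.18 ± 1.48 FPKM at 3 and 24 months. Of these and Hsd11b1, 0 of 4 passed.

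Of 8 other genes induced by corticosteroids, 1 fell at 24 against 3 months (0.211% of all genes fell) and 0 rose, with 4 lower at an unadjusted p under 0.05 (3.47% of all genes) and a median log2 fold change of -0.58. Dusp1, a phosphatase of MAP kinases, fell from 65.6 ± 8.01 to 26.9 ± 13.4 FPKM (SD, n = 5), by -1.36 on the log2 scale with limma's adjusted p at 0.0477, a call that held in 5 of 19 alternatives. The call was lost without any of 3-month mice 5 to 9 or without any of 24-month mice 31, 33, 34 and 35 in turn (adjusted p from 0.0777 to 0.108). Zbtb16 had a log2 fold change of -1.43 (adjusted p = 0.104) and the glucocorticoid-induced chaperone gene Fkbp5 one of -1.12 (adjusted p = 0.102). Per1, a clock gene that corticosteroids also induce, had a log2 fold change of -0.22, Cnksr3 one of -0.017 and Usp2 one of 0.14. Of the 8 estimates 7 were below 0 and 1, that of Usp2, was above. In the 12-month against the 3-month kidneys 0 of the 8 passed, with a median of -0.38.

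Of 8 proteases and inhibitors that act on the channel, Serpine2, which encodes protease nexin-1, an inhibitor of prostasin, rose from 6.61 ± 0.518 to 12.0 ± 1.09 FPKM at 24 against 3 months (SD, n = 5), by 0.78 on the log2 scale with limma's adjusted p at 0.00633. It had 11 ± 2.33 FPKM at 12 months (adjusted p = 0.0822 against 3 months). The call held in 19 of 19 alternatives, and the other 7 did not pass, where 1.22% of all genes passed. Of the 8 estimates 2 were above 0, those of Serpine2 and Plau, and 6 below, with a median log2 fold change of -0.09. At an unadjusted p under 0.05 in limma 2 were lower (3.47% of all genes), Spint2 at -0.65 and Tmprss2 at -0.31. Plau, the gene of the protease urokinase, had 132 ± 21.3, 186 ± 31.4 and 179 ± 20.7 FPKM at 3, 12 and 24 months (adjusted p = 0.151 at 24 against 3 months). Serpine2 is also made outside the tubule, and the cell that carried it cannot be told apart in whole tissue.

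Of 16 partners of the kinase and the ligase, among them Sgk2, Sgk3, Nedd4 and Ndfip2, 0 passed in any comparison, with median log2 fold changes of 0.05, 0.00 and -0.03. The same was true of 7 genes of the WNK kinases and the thiazide-sensitive transporter, with a median of 0.08 at 24 against 3 months, and of the 3 other TSC22 family genes. Intercalated cell markers had a median log2 fold change of -0.54 at 24 against 3 months, and 0 of 5 passed. All 5 estimates were below 0, with Slc26a4 at -0.54 (adjusted p = 0.0696). Leukocyte markers had a median of 0.78 with 0 of 5 passing. At an unadjusted p under 0.05 in limma 4 of the 5 were higher, and the other, Cd68, was at -0.11. Of all 31755 genes 4725 had such a p in either direction. The summed levels of the leukocyte markers were 13.6 to 97.8 FPKM at 3 months, 57.8 to 377 FPKM at 12 months and 93.1 to 207 FPKM at 24 months. The medians of the thick limb, proximal tubule, podocyte and endothelial markers were 0.03, -0.11, -0.12 and 0.19, with 0 passing.

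Of 11 genes of the daily clock, 2 rose and 2 fell at 24 against 3 months (1.22% of all genes passed), Dbp rising from 1.17 ± 0.891 to 12.3 ± 6.84 FPKM and Arntl, the gene of BMAL1, falling from 11.9 ± 3.3 to 1.45 ± 1.35 FPKM (SD, n = 5), with adjusted p of 0.0216 and 0.0146 in limma. The Dbp call was lost without mouse 5 (adjusted p = 0.0529) or 33 (adjusted p = 0.0562). That of Per3, the other gene that rose, was lost without any of mice 5, 6, 9, 31, 33 and 34 (adjusted p from 0.063 to 0.0678). Npas2, the other gene that fell, had 5.07 ± 1.57 FPKM at 3 months and 0.523 ± 0.325 FPKM at 24 months. Its log2 fold change was -1.97 (adjusted p = 0.0088 in limma), and the call held in 17 of 19 alternatives. In the 12-month against the 3-month kidneys 1 rose and 2 fell (0.25% of all genes passed), with Dbp at 10.5 ± 3.24 FPKM and Arntl at 3.89 ± 1.35 FPKM at 12 months (limma's adjusted p = 0.0386 and 0.0448). These calls were lost without any of mice 5 to 9 and 17 to 19, and that of Dbp also without mouse 21 and that of Arntl also without mouse 20, with adjusted p of up to 0.0872 and 0.104. The call of Clock was lost without any of the 10 mice. Immediate early genes had a median log2 fold change of -1.53 at 24 against 3 months, with 0 of 7 passing and 4 lower at an unadjusted p under 0.05 (3.47% of all genes). The paper states that its 3- and 24-month mice were killed on the same day. The hour at which each mouse was killed is not given in the sources used here, so age and hour cannot be told apart. Their part in the Sgk1, Tsc22d3 and Nedd4l values was not tested.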

How the data were processed

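Kidney RNA of 15 male mice was sequenced, with 1 library per mouse. To make the deposited FPKM and coverage, the authors ran Cutadapt on the reads, then Bowtie2 and HISAT2 against GRCm38 (Ensembl annotation), then StringTie. The labels name TopHat2 in place of these mappers and describe removal of ribosomal RNA, whereas the methods describe purification of polyadenylated RNA and pooled RNA. The deposited estimated counts of circular RNAs come from a method not given in the sources used here. Ages were taken from the age labels, since all titles begin with 3M. Nothing states that mice of an age came from separate litters or cages.

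Gene values were sums of FPKM over annotated and assembled transcripts (class codes =, c, j and o). They were tested with limma 3.58.1 (eBayes with trend) in R 4.3.3 on log2(FPKM + 1), over all genes above 0 in at least 1 mouse compared, on the mice of both ages. Fold changes on this scale understate low genes. DESeq2 and edgeR, named in the methods, need counts and were used on circular RNAs alone, whose estimated counts were rounded (edgeR 4.0.16 quasi-likelihood with TMM, above 0 in at least 5 mice, with DESeq2 1.42.0 as the alternative). P-values were adjusted over all features tested (Benjamini-Hochberg). Ratios and starts were compared by exact permutation over 252 assignments, 2-sided, whose smallest p is 0.00794. The FPKM values are not whole reads, so precision rests on the 5 mice of an age. Transcripts of the files had the same ends as GENCODE vM21 for 96.2% of 92459 shared identifiers. Each test was tested on simulated data.

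The named items were drawn from the 7 genes, their transcripts at a mean of at least 1 FPKM or an unadjusted p under 0.05, their most abundant or called circular RNAs, the 3 genes most like each, and from each other list the genes that passed, the 2 with the smallest p and a few fixed by name. Further circular RNAs were picked with their values known. The members and lists were chosen with earlier results of these data known. Other settings tried were pseudocount 0.1, a mean of at least 1 FPKM, rescaling to a fixed total, upper-quartile scaling, all 15 mice, a robust prior, annotated transcripts only, an F test with a library covariate, values relative to principal cell markers and each mouse left out. Sums of fragments in place of FPKM were added after seeing the data.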

Additional observations from a re-analysis of the deposited data

Results flagged for a closer look

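Within each age, the highest and the lowest mouse were compared with the others by Dixon's test over 51 sets of 5 mice, of which chance flags about 1 in 20. The test marked 3. Scnn1a at 24 months had its highest value, 20.3 FPKM, in mouse 32, far from the other 4 mice of that age at 13.9 to 14.7 FPKM. The Nedd4l circles circRNA7165 and circRNA7756 had their highest 3-month values, 582 and 433 CPM, both in mouse 5, which also had the highest linear Nedd4l (34 FPKM). The difference between 24 and 3 months of both circles passed without that mouse (adjusted p = 0.0031 and 0.0184 from edgeR).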

How the results depend on the processing

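Of the 7 genes, 0 passed an adjusted p of 0.05 in limma in any comparison under any of the 19 alternatives tried, and the smallest adjusted p were 0.0942 for Sgk1, 0.104 for Tsc22d3 and 0.133 for Nedd4l, all at 12 against 3 months. The counts of genes called at 24 against 3 months went from 386 to 678 with all 15 mice in 1 fit, to 239 with a robust prior, to 190 with annotated transcripts only and to 58 in the F test with a library covariate, and lay between 109 and 411 without single mice. At 12 against 3 months the count of 79 became 125 under upper-quartile scaling, 299 with all 15 mice, 24 with a robust prior, 27 with annotated transcripts only and 1 in the F test, and lay between 12 and 70 without single mice. At 24 against 12 months the count of 1 became 3 with pseudocount 0.1 and 0 with a mean of at least 1 FPKM or with all 15 mice (limma, with 1098 and 2090 genes at an unadjusted p under 0.05), and lay between 1 and 7 without single mice.

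The counts of transcripts called were 24, 6 and 7. They became 92 and 16 with all 15 mice at 24 and 12 against 3 months, 27 and 11 with pseudocount 0.1 at 12 against 3 and 24 against 12 months, and 4 with a mean of at least 1 FPKM at 24 against 12 months, with ranges of 2 to 32, 2 to 25 and 2 to 16 without single mice. The counts of circular RNAs were 1582, 791 and 88. DESeq2 gave 1239 at 12 against 3 and 418 at 24 against 12 months, and leaving out single mice gave 856 to 1735, 308 to 808 and 0 to 390, the 0 in edgeR without 24-month mouse 33 with 1362 at an unadjusted p under 0.05.

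Some log2 fold changes changed sign, all without a call. With annotated transcripts only these were, at 24 against 3 months, Nedd4l at 0.029, Sgk1 at 0.12, Per1 at 0.072, Slc12a1 at -0.32, Umod at 0.0027, Wnk4 at -0.77 and Wt1 at 0.11, and at 12 against 3 months Nedd4l at 0.012 and Scnn1b at 0.018. Upper-quartile scaling gave Umod 0.015 at 24 against 3 months, and Scnn1a 0.0035 and Scnn1b 0.022 at 12 against 3 months. The F test gave Nr3c1 -0.011, Slc12a1 -0.12 and Umod 0.012, and summed fragments gave Prss8 -0.021 at 24 against 12 months. Relative to principal cell markers, the values were 0.18 for Scnn1a, 0.22 for Scnn1b, 0.0032 for Scnn1g and 0.079 for Sgk1 at 24 against 3 months, 0.37, 0.39 and 0.2 for the subunits at 12 against 3 months and -0.038 for Prss8 at 24 against 12 months. No count over all genes was run relative to these markers. The Scnn1a to Scnn1g ratio at 24 against 12 months was -0.12 with annotated transcripts only.

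Without single mice, the values with a change of sign lay between -0.084 and 0.042 for Nr3c1 and between -0.07 and 0.15 for Slc12a1 at 24 against 3 months, and between -0.19 and 0.23 for ciRNA19 and -0.21 and 0.25 for ciRNA837. At 12 against 3 months they were -0.12 to 0.046 for Scnn1a, -0.079 to 0.051 for Scnn1b and -0.018 to 0.17 for Prss8. At 24 against 12 months they were -0.062 to 0.098 for Prss8 and -0.041 to 0.35 for circRNA10538. The log2 ratio of Scnn1a to Scnn1b lay between -0.13 and 0.059, -0.11 and 0.083, and -0.084 and 0.036 at 24 against 3, 12 against 3 and 24 against 12 months. Those of Scnn1a and Scnn1b to Scnn1g lay between -0.11 and 0.14 and between -0.073 and 0.17 at 24 against 12 months.

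Of the correlations, 2 pairs passed over all mice and 0 with each age centred. Centring turned Scnn1g with Sgk1 to -0.13, with Nedd4l to -0.12 and with Tsc22d3 to -0.08, Nedd4l with Prss8 to 0.17 and Tsc22d3 with Prss8 to 0.09. Without the 2 farthest mice, Scnn1b with Prss8 was -0.04, Scnn1g with Sgk1 -0.21 and Tsc22d3 with Prss8 0.08. The cause of these differences was not tested, except that fewer mice or transcripts entered by construction. No paired analysis was possible because the ages share no replicate numbers. Among single genes, transcripts, circular RNAs and pairs of genes named in the text, 1481 alternative values kept their direction and side of the threshold, 80 lost a call, 17 gained one and 58 changed sign. Of these, values relative to principal cell markers and correlations without the 2 farthest mice were sorted by direction alone. Among the counts of calls and the subunit ratios, 133 kept theirs, 54 counts were lower and 25 higher by more than 1.5 times, and 20 ratios changed sign. No interval from read depth was computed for a gene, and precision was taken from the spread between mice.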
